A study of Homo sapiens with 11 samples.

Results

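A set of 5654 promoter regions carried an Ikaros chromatin immunoprecipitation (ChIP-seq) peak in all 5 peak lists of a series on cell lines from B-cell acute lymphoblastic leukemia (B-ALL). They were chosen by the lists themselves: a peak of untreated JM1 cells on chromosomes 1 to 22 or X, in the promoter class of the deposited annotation, was kept when it overlapped by at least 1 bp a peak in each of the other 4 lists. The untreated JM1 list held 9841 such promoter peaks on these chromosomes and 37448 peaks in all, and the 5 lists together held 300249 peaks. The members therefore made up 57.5% of the promoter peaks. Of the remaining untreated JM1 peaks on the same chromosomes, 22.8% (6292 of 27578) were in all 5 lists. Presence in the lists and the promoter class chose the members, so the presence, score and width of their peaks are given as descriptions without a test.

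The lines JM1, REH, 697 and Nalm6 are human, established, and derive from leukemic B-cell precursors. Cells were left untreated (JM1, REH and 697) or kept for 1 day in 20 µM of the CK2 inhibitor CX-4945 (JM1 and Nalm6). Each of these 5 conditions had 1 peak list, and which of the 2 Nalm6 Ikaros libraries went into its list is not stated, so no difference has a replicate check. An untreated Nalm6 list was not analysed here, and neither were the 5 input libraries. JM1 and REH chromatin was precipitated with the Bethyl antibody A303-516A, whereas 697 and Nalm6 chromatin was precipitated with an affinity-purified antibody against Ikaros. Line and antibody cannot be told apart between these pairs.

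Ikaros, encoded by IKZF1, is a zinc finger transcription factor that is needed for lymphocyte development and is often lost or mutated in B-ALL. It binds DNA through a short GGGAA core, recruits chromatin-modifying complexes such as NuRD, and is phosphorylated by the protein kinase CK2. Active human promoters often lie in CpG islands, stretches rich in G, C and the CpG dinucleotide, where GC boxes bound by SP1 and related factors are common.

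The sequences below are examples of members, and their motif counts do not describe the set. BRPF3, RCOR1, PWWP3A and FIZ1 ranked near the top of every list, KMT2A had the highest untreated JM1 score among the members, and the others come from the gene groups described further on. Each is the 200 bases directly upstream of the RefSeq transcription start site (TSS), read 5′ to 3′ on the strand of the gene from the RefSeq promoter table for GRCh38.p14. Capitals mark GC boxes (GGGCGG or CCGCCC) and the Ikaros core searched for here (TGGGAA or TTCCCA).
BRPF3 promoter: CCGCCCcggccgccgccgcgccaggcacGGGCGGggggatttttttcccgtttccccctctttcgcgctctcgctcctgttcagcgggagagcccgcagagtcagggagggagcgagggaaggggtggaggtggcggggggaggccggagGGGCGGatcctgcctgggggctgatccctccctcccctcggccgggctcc
RCOR1 promoter: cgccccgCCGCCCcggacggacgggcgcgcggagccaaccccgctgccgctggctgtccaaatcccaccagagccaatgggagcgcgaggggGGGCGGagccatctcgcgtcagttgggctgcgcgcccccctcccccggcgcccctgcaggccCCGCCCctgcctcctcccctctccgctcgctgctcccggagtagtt
PWWP3A promoter: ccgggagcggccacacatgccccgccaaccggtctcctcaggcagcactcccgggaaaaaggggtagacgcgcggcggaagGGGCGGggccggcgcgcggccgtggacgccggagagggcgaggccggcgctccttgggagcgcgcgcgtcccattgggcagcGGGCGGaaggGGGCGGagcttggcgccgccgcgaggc
FIZ1 promoter: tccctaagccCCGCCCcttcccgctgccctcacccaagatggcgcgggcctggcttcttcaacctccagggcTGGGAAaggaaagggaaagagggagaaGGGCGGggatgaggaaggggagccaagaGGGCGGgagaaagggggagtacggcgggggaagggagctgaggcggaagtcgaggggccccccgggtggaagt
KMT2A promoter: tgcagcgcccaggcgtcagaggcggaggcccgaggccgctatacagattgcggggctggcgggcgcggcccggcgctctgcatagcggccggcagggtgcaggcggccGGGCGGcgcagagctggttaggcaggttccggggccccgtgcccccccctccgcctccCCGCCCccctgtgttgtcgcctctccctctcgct
SMARCA4 promoter: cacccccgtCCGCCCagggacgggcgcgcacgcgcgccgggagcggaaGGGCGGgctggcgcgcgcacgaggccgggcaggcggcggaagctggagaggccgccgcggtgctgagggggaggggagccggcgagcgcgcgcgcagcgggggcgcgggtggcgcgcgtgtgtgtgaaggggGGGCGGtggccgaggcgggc
CSNK2A2 promoter: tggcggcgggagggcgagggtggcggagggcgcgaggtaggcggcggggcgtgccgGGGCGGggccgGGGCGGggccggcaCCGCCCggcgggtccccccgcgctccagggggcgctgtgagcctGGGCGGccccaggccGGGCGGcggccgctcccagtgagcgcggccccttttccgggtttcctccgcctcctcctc
STAT5B promoter: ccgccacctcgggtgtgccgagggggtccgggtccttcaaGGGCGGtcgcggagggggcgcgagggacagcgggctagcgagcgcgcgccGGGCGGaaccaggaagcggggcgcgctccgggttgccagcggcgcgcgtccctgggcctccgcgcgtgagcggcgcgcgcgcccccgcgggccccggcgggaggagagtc
BCL2L11 promoter: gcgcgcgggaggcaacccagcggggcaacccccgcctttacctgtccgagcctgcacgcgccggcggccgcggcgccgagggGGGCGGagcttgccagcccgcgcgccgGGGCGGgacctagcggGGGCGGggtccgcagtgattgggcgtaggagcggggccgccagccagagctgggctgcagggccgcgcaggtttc
IKZF1 promoter: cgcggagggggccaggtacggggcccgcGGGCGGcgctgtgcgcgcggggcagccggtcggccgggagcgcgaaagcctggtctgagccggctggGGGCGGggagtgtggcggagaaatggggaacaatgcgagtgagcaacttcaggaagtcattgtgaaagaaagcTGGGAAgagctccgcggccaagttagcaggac
PSMD2 promoter: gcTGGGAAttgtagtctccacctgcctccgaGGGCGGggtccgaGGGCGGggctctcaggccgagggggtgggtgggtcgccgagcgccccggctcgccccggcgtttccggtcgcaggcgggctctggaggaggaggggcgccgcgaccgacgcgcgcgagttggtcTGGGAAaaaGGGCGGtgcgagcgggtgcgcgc

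The stretches lie at chr6:36196544-36196743 (plus strand) for BRPF3, chr14:102592449-102592648 (plus) for RCOR1, chr19:1354759-1354958 (plus) for PWWP3A and chr19:55599518-55599717 (minus) for FIZ1. They lie at chr11:118436292-118436491 (plus) for KMT2A, chr19:10960830-10961029 (plus) for SMARCA4, chr16:58198107-58198306 (minus) for CSNK2A2 and chr17:42276392-42276591 (minus) for STAT5B. They lie at chr2:111120714-111120913 (plus) for BCL2L11, chr7:50304516-50304715 (plus) for IKZF1 and chr3:184299041-184299240 (plus) for PSMD2. In BRPF3, RCOR1, PWWP3A, FIZ1, SMARCA4, STAT5B, BCL2L11 and IKZF1 all 200 bases lay inside the stretch covered by peaks of all 5 lists, against 188 bases in CSNK2A2, 152 in KMT2A and 121 in PSMD2. All 11 held GC boxes, with 5 in CSNK2A2 and 2 in KMT2A, STAT5B and IKZF1. They were picked from a longer set of member promoters, in which EP300, RPS19, FLT3, FANCA, FOXP1 and NUP50 had no GC box. The Ikaros core in the form searched for, TGGGAA or TTCCCA, was found in 3 of the 11, 2 times in PSMD2 and 1 time each in FIZ1 and IKZF1. The shorter GGGAA was not counted, and it stands unmarked in other stretches, such as that of PWWP3A. IKZF1 is the gene of Ikaros itself. GC content of these stretches ran from 67.5% in FIZ1 to 83.5% in SMARCA4 and CSNK2A2.

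The 697 list decided most of the membership. Of the 9841 promoter peaks, 96.5% (95% exact Clopper-Pearson interval 96.1 to 96.8%) overlapped a REH peak, 95.9% (95.5 to 96.3%) a treated JM1 peak, 89.3% (88.6 to 89.9%) a Nalm6 peak and 59.4% (58.4 to 60.4%) a 697 peak. These and all later intervals cover counting error only. A peak was missing from the 697 list alone in 2915 cases, or 29.6%, and from all 4 other lists in 155. The 697 list was the shortest, with 19652 peaks, against 70894 in Nalm6, 83563 in REH and 88692 in treated JM1. Without the 697 list the same rule gave 8569 regions, or 87.1% of the promoter peaks.

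Neighbouring members sometimes fell in a single peak of another list, so the 5654 members overlapped 5394 different REH peaks and 5431 different treated JM1 peaks. In 697 a member was split over several peaks in 199 cases. A stretch covered by all 5 lists at once existed in 5632 members (99.6%), with a median of 630 bp (quartiles 370 and 1020 bp). The other 22 members met the rule through overlaps that did not coincide. The smallest overlaps that met the rule were 3 bp at NFRKB, a subunit gene of the INO80 remodeller, 3 bp at TBC1D9B and 6 bp at the corepressor gene CTBP1, each with a 697 peak. Just outside it, the nearest 697 peak ended 3 bp from the ZNF343 peak and 4 bp from the AC004816.2 peak, and the nearest REH peak 5 bp from the SRPX peak. The promoter class was also given to an overlapping peak for 85.2% of members in 697, 78.0% in Nalm6, 71.3% in treated JM1 and 70.5% in REH.

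The members carried 5236 gene names, 37 had none, and 334 genes had more than 1 member. The annotated TSS was found in GENCODE release 44 within 1000 bp of 5482 members. Of these TSSs, 85.1% (84.2 to 86.1%) belonged to protein-coding genes and 12.3% (11.4 to 13.2%) to long noncoding RNAs. Among promoter peaks missing from at least 1 list, protein-coding genes made up 79.9% (78.6 to 81.1%) and long noncoding RNAs 13.7% (12.7 to 14.8%). A member peak contained TSSs of at least 2 protein-coding genes in 616 cases, or 10.9% (10.1 to 11.7%), against 7.91% (7.11 to 8.76%) of the missing peaks. The member peaks were also wider, with a median of 1199 bp against 745 bp.

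The stretch covered by all 5 lists lay just upstream of the TSS. Its centre had a median position of -151 bp (quartiles -453 and 53 bp, n = 5461), and it contained the TSS in 60.1% of members (58.8 to 61.4%). Coverage around the TSS was highest at -150 bp in untreated JM1, where 88.6% of members lay inside a peak of that list, and at -50 bp in 697, with 69.2%. The treated JM1 and REH lists covered 96.7% at -100 bp and 97.6% at -150 bp, and Nalm6 covered 90.9% at -100 bp. The lists differed far from the TSS. At 1000 bp downstream REH still covered 50.7% and treated JM1 47.5% of members, against 34.2% in Nalm6, 14.8% in untreated JM1 and 10.1% in 697. Median widths of the member peaks were 2627 bp in REH, 2458 bp in treated JM1, 1737 bp in Nalm6, 1199 bp in untreated JM1 and 825 bp in 697. The shortest list, 697, thus had the narrowest member peaks. Position relative to the TSS is partly set by the promoter class that chose the members. The upstream position was not particular to them. The centre of the untreated JM1 peak had a median position of -223 bp in members and -246 bp in promoter peaks missing from at least 1 list.

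**Figure D1:**
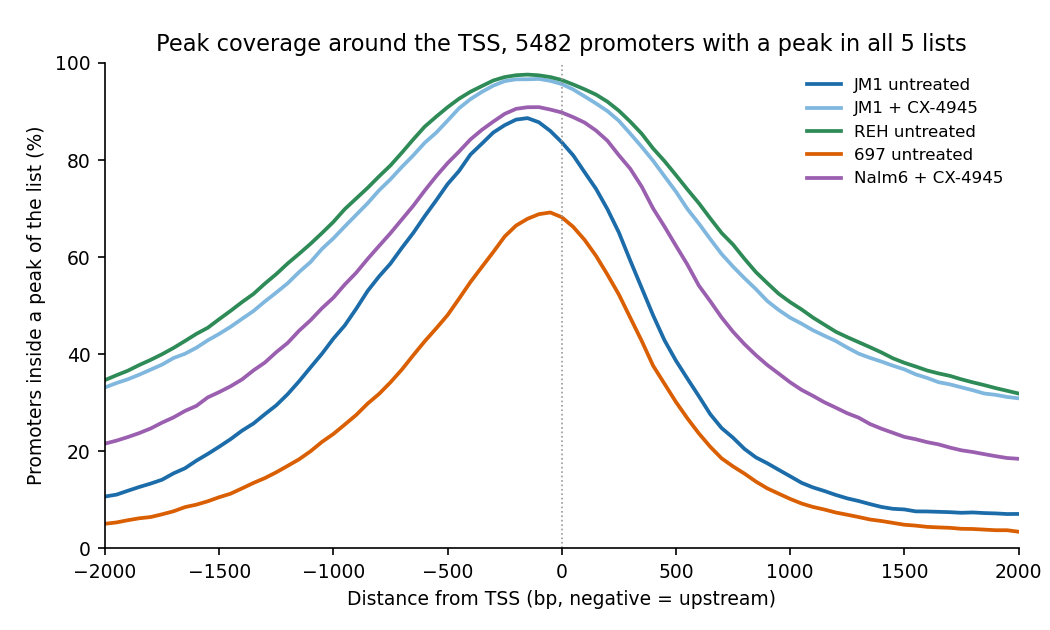
Share of the 5482 members with a located TSS that lay inside a peak of each list (vertical axis, %), by distance from the TSS (horizontal axis, bp, negative upstream), with 1 line for each list. All 5 lines peak between -150 and -50 bp, from 69.2% in 697 to 97.6% in REH, and REH and treated JM1 stay above 697 and untreated JM1 far from the TSS.

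The members had the most GC-rich sequence of the groups compared. The 300 bp at the centre of the untreated JM1 peak had a median GC content of 71.0% in members (quartiles 65.3 and 76.3%), 61.7% (56.3 and 66.3%) in promoter peaks missing from at least 1 list and 63.0% in those missing from 697 alone. Non-promoter peaks in all 5 lists had a median of 66.7%, and the 35116 RefSeq promoters, taken from 250 bp before to 50 bp after the TSS, 58.7%. In that TSS window the members also had a median of 71.0%. CpG dinucleotides were also denser. The ratio of observed to expected CpG had a median of 0.824 in members, 0.506 in the missing promoter peaks, 0.589 in the non-promoter peaks in all 5 lists and 0.579 in RefSeq promoters. Windows with at least 55% GC and a CpG ratio of at least 0.65 made up 72.2% of members (71.0 to 73.3%) and 35.4% of the missing peaks (34.0 to 36.9%). In RefSeq promoters the share was 41.9%.

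The share of promoter peaks found in all 5 lists was higher at each step of GC content. It was 19.7% (16.3 to 23.5%) below 50% GC, 37.5% (35.3 to 39.8%) between 60 and 65%, 77.5% (75.5 to 79.4%) between 70 and 75%, and 97.2% (95.5 to 98.5%) at 80% GC or more. Overlap with each list was also higher in the uppermost than in the lowest bin. From the lowest to the highest GC bin, it went from 21.0 to 99.4% in 697, from 56.4 to 98% in Nalm6, from 74.1 to 99.8% in REH and from 74.1 to 100% in treated JM1. Peak width moved with membership too, since peaks under 500 bp were in all 5 lists in 31.3% of cases and peaks of 3000 bp or more in 84.1%, where a wide peak can meet an overlap rule more readily. Among the narrower peaks, those under the median width of 986 bp, the share was 8.02% below 60% GC and 78.6% at 70% or more. Among the wider peaks it was 42.6 and 93.5%. GC content and width thus each moved with membership within levels of the other.

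**Figure D2:**
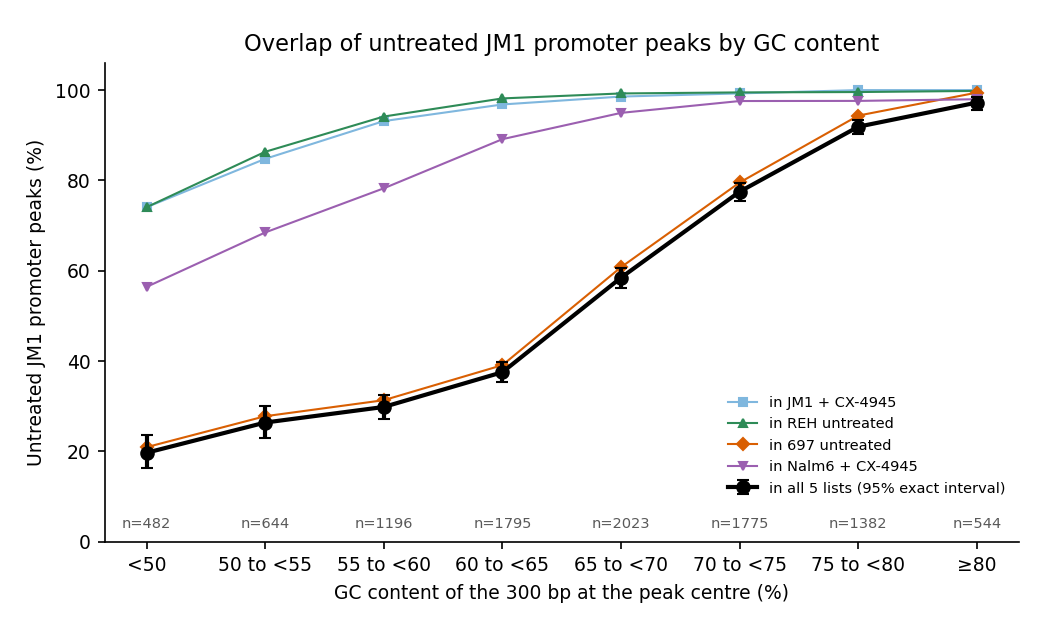
Share of untreated JM1 promoter peaks (vertical axis, %) that overlap a peak of each other list (coloured lines) and of all lists (black, with 95% exact intervals), by GC content of the 300 bp at the peak centre (horizontal axis, %), with the number of peaks in each bin. The black line goes from 19.7% to 97.2% and runs just under the 697 line throughout.

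Matches to 16 short promoter motifs were counted on both strands of the same 300 bp windows at the peak centre. In RefSeq promoters they were counted from 250 bp before to 50 bp after the TSS, so members are also given in that TSS window (n = 5482) beside them. The GC box was the most frequent, in 72.0% of members (70.8 to 73.1%), 40.8% of missing peaks (39.3 to 42.3%), and 50.1% of non-promoter peaks in all 5 lists. In the TSS window it was found in 75% of members (73.8 to 76.1%) and 45% of RefSeq promoters. The Ikaros core, searched for as TGGGAA and not as the shorter GGGAA, was less frequent in members. It was found in 17.1% of members (16.2 to 18.2%), 25.1% of missing peaks (23.8 to 26.4%), and 20.5% of non-promoter peaks in all 5 lists. In the TSS window the shares were 17.5% of members (16.5 to 18.5%) and 24.0% of RefSeq promoters. A match is a run of letters and not a bound site, and a window without one says nothing about Ikaros.

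The motif differences depended on GC content. With the missing peaks weighted to the GC content of the members, the GC box was found in 68.0% of missing peaks, 4.0 percentage points under the members, and it was higher in members in 7 of 7 GC bins. Weighted in the same way, the Ikaros core was found in 16.5% of missing peaks, so that the members were 0.63 points above them in place of 7.94 points below. The core was higher in members in 3 of 7 GC bins. It was lower in members between 55 and 60% GC (27.2 against 31.5%) and between 60 and 65% (26.4 against 28.9%). In the bin between 65 and 70% GC, 21.4% of members (19.1 to 23.8%) and 18% of missing peaks (15.4 to 20.7%) had the core. At 75 to 80% GC the shares were 10.5 and 10.7%. The uppermost bin held 15 missing peaks. Without it the weighted differences were 4.04 points for the GC box and 0.29 points for the Ikaros core, which was then higher in members in 2 of 6 bins.

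The ETS motif (CCGGAA), the core site of a factor family that includes ETS1 and ERG, behaved in the opposite way. Its share was close in members (16.9%) and missing peaks (16.7%), but at the members' GC content 23.2% of missing peaks had it, and it was higher in members in 1 of 7 bins. The EBF motif (CCCNNGGG), named for the early B-cell factor, was found in 34.5% of members, 24.6% of missing peaks and 31.9% of missing peaks at the members' GC content. Without the bin of 15 missing peaks the difference at that GC content went from 2.57 to 0.68 points. RUNX (TGTGGT) was found in 7.41% of members and 13.7% of missing peaks, and E2A (CAGGTG) in 25.4 and 29.8%. At the members' GC content these shares among missing peaks were 8.75% and 26.8%, and without the thinly filled bin the RUNX difference went from -1.34 to -0.44 points. NRF1 (CGCANGCG) was found in 11.5% of members and 7.05% of missing peaks, or 12.8% at the members' GC content. The CCAAT box (CCAAT) was found in 17.6, 25.6 and 17.7%. Without that bin the CCAAT difference went from -0.025 to -1.04 points. The TATA box (TATAAA) was found in 2.26% of members and 4.01% of missing peaks. In the TSS window, EBF was found in 33.1% of members and 19.1% of RefSeq promoters, RUNX in 7.73 and 13.1%, E2A in 23.1 and 20.6%, and the TATA box in 2.94 and 11.5%.

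The remaining motifs were rarer or closer. The E-box (CACGTG) was found in 7.20% of members and 6.83% of missing peaks, RFX (GTTGCC) in 9.90 and 11.9%, E2F (TTCCCGCC) in 4.65 and 2.99%, and YY1 (AAGATGG) in 4.03 and 4.85%. The cAMP response element (TGACGTCA) was found in 0.94 and 1.17%, the ZNF143 motif (ACTACAA) in 0.88 and 1.77%, and the CGCG element (TCTCGCGA) in 0.67 and 0.50%. In the TSS window the E-box was found in 8.39% of members and 7.26% of RefSeq promoters, RFX in 10.4 and 12.2%, E2F in 4.40 and 3.16%, and YY1 in 4.36 and 5.84%. The cAMP response element was found there in 1.55 and 1.85%, the ZNF143 motif in 1.33 and 2.77%, and the CGCG element in 1.06 and 1.15%. Some matches overlap, since an E2F match can hold part of a GC box on the other strand.

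**Figure D3:**
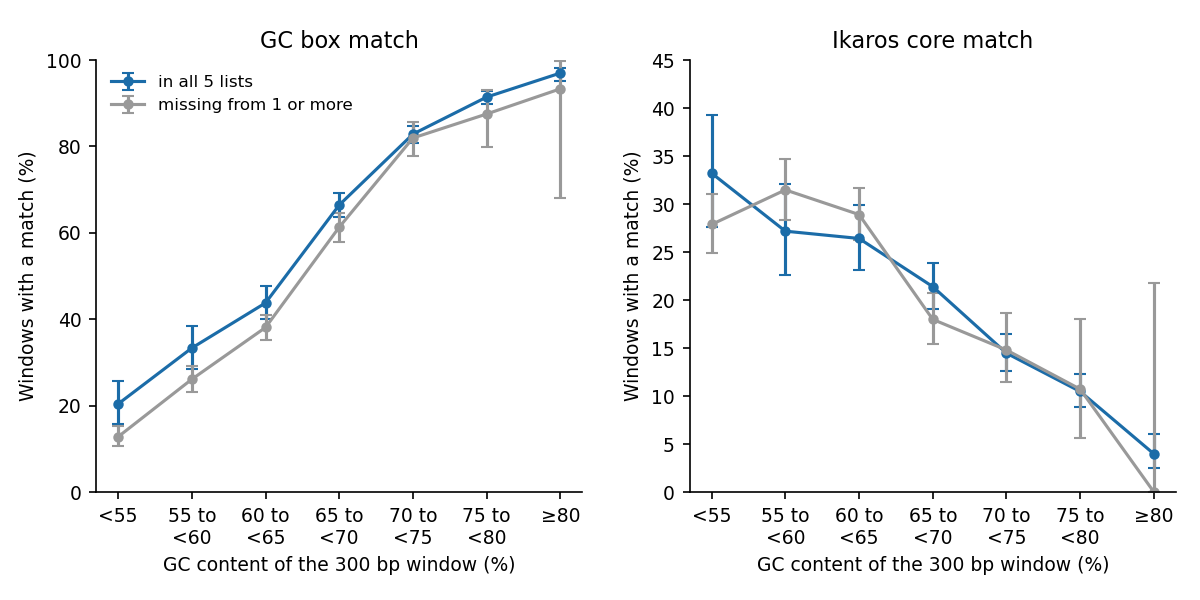
Share of 300 bp windows with a match (vertical axes, %) in bins of GC content (horizontal axes, %), for the GC box (left) and the Ikaros core (right), in promoter peaks in all 5 lists and in those missing from at least 1, with 95% exact intervals. The GC box points of the members lie above the others in 7 of 7 bins, and the Ikaros core points cross.

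Within each list the members scored high. The median score of their peaks was 19 (quartiles 15 and 24) in untreated JM1 and 39 (29 and 58) after treatment of JM1. It was 51 (37 and 75) in REH, 29 (21 and 42) in 697 and 42 (33 and 54) in Nalm6. Scores of different lists are not on a common scale, so each was placed among all peaks of its own list. The median percentile of the members was 91.8 in treated JM1 and 91.3 in REH, followed by 89.5 in Nalm6, 75.7 in untreated JM1 and 66.2 in 697. In untreated JM1 26.0% and in 697 30.8% of members still lay under the median of the list, against 3.18% in Nalm6, 2.16% in REH and 1.88% in treated JM1. Among promoter-class peaks alone the median percentile was lower, from 53.1 in 697 to 72.0 in Nalm6.

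The order of the members by score was only partly shared between lists. Spearman's rho across the 5654 members was 0.54 between treated JM1 and REH, 0.33 between the JM1 lists, 0.33 between 697 and Nalm6, and between 0.14 and 0.27 for the other pairs. These are descriptions across regions, which share base composition and, within a line, cells. Treated JM1 and REH, the highest pair, share the antibody but neither the line nor the treatment. They were also the longest lists, with 88692 and 83563 peaks, and had the widest member peaks. Untreated JM1 and REH share the antibody too, and their rho was 0.27. Of the 565 members with the highest scores in each list, 190 (33.6%) were common to treated JM1 and REH, 167 (29.6%) to the JM1 lists and 72 (12.7%) to untreated JM1 and 697. Each of these groups was 565 of the 5654 members, so a pair of unrelated orders would share about that fraction. For all 5 lists together the fraction would be far smaller. All 5 groups shared 5 of 565 members. These were RAB3IP, TMCO3, BRPF3, RCOR1 and ZNF12, named here after their values were seen.

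Score and sequence moved together inside the set. With the members divided by score into 4 groups of equal size, from the lowest to the highest group, median GC content went from 69.3 to 73.0% in untreated JM1 and from 68.0 to 73.7% both in treated JM1 and in REH, with 67.7 to 75% in 697 and 67.3 to 74.7% in Nalm6. The share with a GC box went from 62.0 to 82.2% in Nalm6, 62.7 to 80.8% in 697, 61.9 to 81.8% in REH, 62.8 to 82.0% in treated JM1 and 67.3 to 76.7% in untreated JM1. The Ikaros core did not follow. Its share went from 21.4 to 14% in Nalm6, 21.1 to 14% in 697 and 20.0 to 16.1% in REH. It went from 20.4 to 15.1% in treated JM1 and 17.4 to 17.5% in untreated JM1. The motif shares by score were not matched for GC content. Among members the core share also went from 33.21% below 55% GC to 3.97% at 80% GC or more. Between the same bins the GC box share went from 20.38 to 96.98%. Whether any motif moved with score at equal GC content was not tested. The ETS motif share went from 12.5 to 21.0% in REH, 11.9 to 22% in treated JM1 and 14.4 to 19.2% in untreated JM1. It went from 17.2 to 15.5% in 697 and 16.8 to 16.9% in Nalm6. Among members it was 9.81% below 55% GC, 21.6% between 70 and 75% and 11.7% at 80% GC or more. The REH and both JM1 lists were made with the A303-516A antibody. Its part cannot be told apart from that of the lines, and the part of GC content was not tested.

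Among the members, 15 were chosen as those whose lowest percentile over the 5 lists was highest. RAB3IP, which encodes an exchange factor for the membrane traffic GTPase RAB8, led them (chr12:69738737-69739691). Its scores were 42 in untreated JM1, 223 in JM1 with the inhibitor, 126 in REH, 84 in 697 and 76 in Nalm6, and its lowest percentile was 99.2. All further sets of 5 scores keep this order of lists. BRPF3, a scaffold subunit of histone acetyltransferase complexes (chr6:36196380-36197251), had scores of 37, 119, 127, 105 and 113. Its 872 bp untreated JM1 peak lay entirely inside the peaks of the other 4 lists. RCOR1, the CoREST subunit of a corepressor complex (chr14:102591504-102593674), had 34, 89, 109, 76 and 67 and a common stretch of 1937 bp. These 3 promoters thus held scores above the member median in every list.

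The splicing regulators RBFOX2 and HNRNPU belonged to the same group. RBFOX2 (chr22:36028172-36029244) had scores of 54, 85, 135, 74 and 68, and HNRNPU (chr1:244862921-244864389) had 39, 93, 88, 71 and 78. NEK7, a mitotic kinase gene (chr1:198156722-198157572), had 54, 138, 96, 79 and 59. AP3D1, a subunit of the AP-3 vesicle coat (chr19:2164190-2165451), stood apart in sequence, with 53.3% GC at the peak centre. FIZ1 (chr19:55599238-55600175), a zinc finger gene, had 60.7% there, and the other 13 had from 74.3% in RCOR1 to 86.0% in PAXIP1. The FIZ1 scores were 70, 82, 109, 77 and 58, and those of PAXIP1, a component of histone methyltransferase complexes (chr7:155002260-155003888), were 38, 110, 115, 61 and 64. Zinc finger genes ZNF652 (33, 291, 110, 91 and 64) and ZNF12 (33, 167, 119, 62 and 78), with PWWP3A, TMCO3, C17orf58 and the antisense RNA gene AP000704.1, completed the 15. Their lowest percentiles ranged from 96.1 to 99.2.

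**Figure D4:**
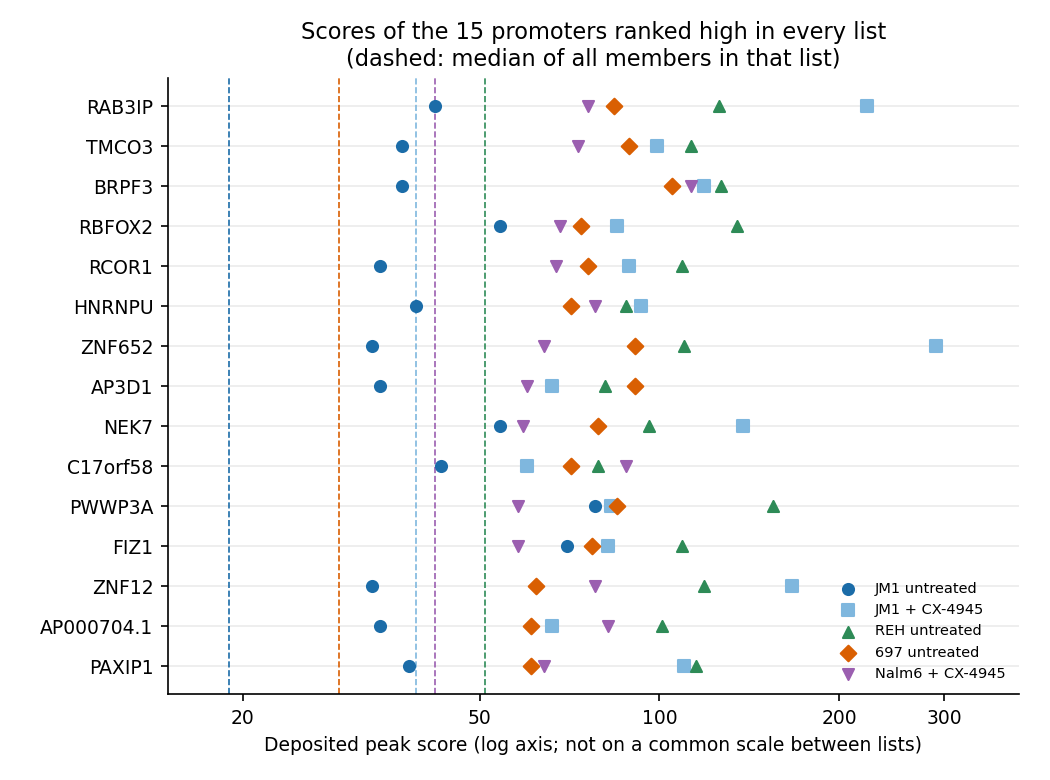
Deposited scores (horizontal log axis) of the 15 members with the highest lowest percentile (rows), with 1 marker for each list and dashed lines at the median score of all members in each list. Every marker lies above the dashed line of its own list, and the untreated JM1 marker is the lowest in 13 of 15 rows.

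The members leading single lists had raw scores that differed in size between lists, but these scores have no common scale. KMT2A, which encodes a histone methyltransferase and is a common fusion partner in leukemia (chr11:118435971-118437493), had the highest member score in untreated JM1. Its scores were 379, 584, 341, 90 and 53 in the order given above, at percentiles of 95.1 or more in all 5. RPS19, a ribosomal protein gene (chr19:41859659-41860929), had 132, 212, 416, 50 and 96, at percentiles of 91.8 or more in all 5. AC231981.1, an uncharacterised transcript (chr2:3518474-3519835), had the highest member score in treated JM1 and in REH, with 72, 2101, 517, 16 and 44, and lay at percentile 26.0 of 697. LRRC27 had 1324 and SUGP2 696 in treated JM1, at percentiles of 99.99 or more. They had 59 and 25 in untreated JM1, at percentiles 99.8 and 91.7. NABP2, whose protein coats single strands of DNA during repair, had 152 in untreated JM1, at percentile 99.98. It had 18 in 697 and 21 in Nalm6, at percentiles 34.1 and 52.0.

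Other members led in 697 and Nalm6. IER3-AS1 (chr6:30741221-30744775) had the highest member score in both, with 331 and 257, against 29, 66 and 75 in untreated JM1, treated JM1 and REH. Its percentile was 95.7 or more in every list. ARHGAP45, which encodes a regulator of small GTPases in blood cells, had 146 in 697 and 18 in untreated JM1, and ARHGAP32 had 138 and 23. In untreated JM1 their percentiles were 70.8 and 88.3. SP1, the gene of the factor that binds GC boxes (chr12:53379779-53381170), had 133 in Nalm6, 218 in treated JM1, 47 in untreated JM1, 67 in REH and 44 in 697. All of these lay at percentiles of 87.5 or more. PPP2R3B, a regulatory subunit of the phosphatase PP2A, had 123 in Nalm6, 140 in treated JM1, 17 in untreated JM1, 34 in REH and 22 in 697. Its percentile ran from 48.4 in 697 to 99.99 in Nalm6.

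Some members sat at opposite ends of different lists. FRS2, an adaptor of growth factor receptors (chr12:69470084-69470860), had scores of 87, 206 and 138 in the JM1 and REH lists, at percentiles of 99.7 or more, and 10 in 697, at percentile 0.61, with 22 in Nalm6. ARHGAP4 was lowest in Nalm6 (score 10) and at percentile 98.7 in treated JM1 (85). AC006059.1 ran the other way, with 10 in untreated JM1 and 100 in 697. The polarity gene PARD3 had 14 in untreated JM1 and 12 in treated JM1, but 140 in REH and 60 in Nalm6. BSN, which encodes a protein of the presynaptic zone, had 14 in REH and 274 in treated JM1. These are the members with the widest spread of percentiles, taken once for each list in which they were low.

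The width of the members ranged widely. The widest, of 20881 bp, was named for MIR657 and lay at the TSS of AATK on chromosome 17, which fell in peaks of 81629 bp in treated JM1 and 82251 bp in REH but of 3370 bp in 697. Those of SLC25A22 and SLC12A7 spanned 17730 and 17512 bp. The narrowest were AC005696.4 and PRRG1, with 278 bp each, and PSMD2, with 279 bp. PSMD2, a proteasome subunit gene, still had scores of 23, 150, 50, 59 and 55. KRIT1 and SLC25A22 peaks each contained TSSs of 4 protein-coding genes, and AL110118.2 of 3.

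Genes of 31 lists were then placed by the nearest gene named in the untreated JM1 file. Of 19962 protein-coding genes, 23.0% were named at a member, and of the 8355 genes named at any untreated JM1 promoter peak, 62.6% were. Read against the 23.0%, the lists ranged from 0 to 61.5%. Each list is described by its counts, and no list was tested.

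Chromatin regulators stood near the top, with 30 of 49 genes named at a member, 7 at another promoter peak and 12 at none. KMT2A led this list. KAT6A, a histone acetyltransferase gene, had scores of 27, 57, 125, 79 and 56, and the acetyltransferase gene EP300 had 26, 70, 113, 76 and 48. SMARCA4, the ATPase of SWI/SNF remodellers (chr19:10960476-10961567), had 32, 486, 157, 129 and 40. The list also held EZH2, the methyltransferase of the Polycomb repressor, CTCF and DNMT1. Of the NuRD complex, which Ikaros recruits, 8 of 13 subunit genes were named at a member. They were GATAD2A (21, 90, 80, 44 and 59), RBBP7 (38, 54, 90, 49 and 32), MBD3 (31, 167, 80, 73 and 30), MTA1, MTA2, MTA3, HDAC2 and CHD3. CHD4 was named at a promoter peak missing from at least 1 list, and HDAC1, MBD2, RBBP4 and GATAD2B at none.

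B-cell transcription factors were named at a member in 19 of 32 cases, at another promoter peak in 2 (PAX5 and MEF2D) and at none in 11. MYB, a regulator of blood progenitors, had scores of 39, 45, 101, 60 and 45, POU2F1 (OCT1) had 44, 298, 98, 48 and 61, and RUNX1 had 22, 59, 129, 43 and 70. The early B-cell factors EBF1 (24, 43, 66, 23 and 33) and TCF3 (18, 36, 41, 28 and 38) were members as well. In the Ikaros family the promoters of IKZF1 and IKZF4 were members. IKZF1 (chr7:50303480-50304948) had scores of 26, 46, 92, 79 and 52, with a lowest percentile of 93.0, and IKZF4, the gene of Eos, had 48, 81, 60, 61 and 41. IKZF2 and IKZF5 were named at promoter peaks missing from a list, and IKZF3 at none.

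Signalling genes varied by list. JAK-STAT and NF-kB genes were named at a member in 15 of 28 cases, with STAT5B (26, 75, 60, 103 and 75), TRAF2 (22, 64, 58, 46 and 40) and TRAF3 (21, 52, 73, 73 and 79) ranked highest. PI3K, AKT and mTOR genes were named in 14 of 28, with the catalytic subunit gene PIK3CA (39, 56, 135, 55 and 62) first and RHEB, the activator of mTOR, second (26, 45, 56, 51 and 80). In glucose metabolism the count was 11 of 26, with the insulin receptor gene INSR (25, 75, 71, 65 and 53), GPI (38, 524, 55, 39 and 66) and PFKP (22, 36, 104, 28 and 64). Pre-B cell receptor signalling and surface genes were named in 7 of 32, led by FLT3 (22, 36, 102, 66 and 46), CD72 (20, 42, 115, 34 and 32) and CD81 (18, 34, 48, 72 and 43). V(D)J recombination genes were named in 2 of 12, HMGB1 (26, 56, 155, 48 and 30) and XRCC6 (12, 103, 40, 43 and 24), with HMGB2 at another promoter peak. RAG1, RAG2, DNTT, DCLRE1C, LIG4, XRCC4, XRCC5, NHEJ1 and PRKDC were named at no untreated JM1 promoter peak. With any TSS within 1000 bp counted, 4 of these 12 genes had a member, RAG1 among them, 3 had another promoter peak and 5 had none. In CK2 itself, CSNK2A2, a catalytic subunit gene (chr16:58197339-58198294), had 25, 103, 127, 62 and 73, and CSNK2A1, the other, had 12, 64, 65, 17 and 28. CSNK2B was named at a promoter peak missing from a list and CSNK2A3 at none.

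In the BCL2 family, 10 of 17 genes were named at a member, 0 only at promoter peaks missing from a list, and 7 at none. Of the family, the death-promoting BH3-only genes BBC3 (26, 56, 101, 50 and 53), BCL2L11 (18, 39, 64, 33 and 44), BIK, HRK, PMAIP1 and BMF were members, as were the survival genes BCL2 (22, 33, 144, 56 and 60), MCL1 (22, 93, 70, 35 and 43) and BCL2L1 (17, 63, 40, 19 and 21). The effector gene BAX had 12, 43, 39, 32 and 26. BCL2L1, which encodes the survival protein Bcl-xL, had a lowest percentile of 37.7, under the member median of 51.4. BCL2L2, BOK and BAD had a TSS within 1000 bp of a member named for another gene, and BCL2L10, BAK1, BID and BCL2A1 had neither. Death receptor, caspase and IAP genes were named at a member in 3 of 20 cases, among them TNFRSF10A (14, 30, 50, 25 and 31), and at another promoter peak in 7.

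The MYC network list was named at a member in 7 of 12 cases. They were the MYC relative MYCL (14, 60, 53, 36 and 54), the dimer partner MAX (19, 79, 82, 18 and 23), and the related network genes MXI1 (23, 79, 59, 39 and 72), MLXIP (18, 54, 81, 34 and 28), MNT (17, 55, 53, 19 and 35), MXD3 (14, 31, 57, 18 and 34) and MLX (18, 39, 42, 17 and 41). MXD1 and MGA were named at other promoter peaks, and MYC itself, MYCN and MXD4 at none.

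Lists of housekeeping machines had fewer members by the nearest-gene rule. Cytosolic ribosomal protein genes were named at a member in 8 of 67 cases and at another promoter peak in 14. RPS19 apart, the members included RPL8 (27, 113, 64, 24 and 58), RPL19 (22, 20, 43, 21 and 44), RPL13, RPS21, RPL22 and RPL35. Mitochondrial ribosomal protein genes were named in 5 of 70, with MRPL11 (21, 63, 60, 63 and 63) and MRPS6 (21, 115, 56, 67 and 80) the highest, followed by MRPS2 (16, 31, 52, 21 and 33). Respiratory chain genes were named in 4 of 52, NDUFB10 (23, 33, 64, 28 and 55), COX4I1 (29, 40, 75, 24 and 41), NDUFS7 (14, 25, 33, 19 and 28) and NDUFA10. Proteasome genes were named in 3 of 31, PSMA7 (24, 98, 70, 55 and 60), PSMD2 and PSMD11 (24, 85, 71, 22 and 34). With any TSS within 1000 bp counted, cytosolic ribosomal proteins had 19.4% (10.8 to 30.9%) and mitochondrial ones 15.7% (8.11 to 26.4%). The respiratory chain had 9.62% (3.20 to 21.0%) and the proteasome 19.4% (7.45 to 37.5%), against 28.4% of all protein-coding genes. That 28.4% lay inside the intervals of the cytosolic ribosomal proteins and the proteasome. Replication-dependent histone genes were named in 0 of 36, which allows a share of up to 9.74% (upper bound of the 95% exact interval), and 0 of 36 also had a TSS within 1000 bp of a member.

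Other lists of cell machinery lay on both sides of the 23.0% of all protein-coding genes. They ran from 13.6% for DNA damage and repair to 34.3% for heat shock and the unfolded protein response. Splicing factors were named at a member in 12 of 47 cases, with HNRNPU, HNRNPL (25, 201, 124, 55 and 58) and PTBP1 (25, 45, 55, 110 and 51) highest. Replication and cell cycle genes were named in 14 of 55, with the G1 kinase genes CDK6 (24, 57, 109, 51 and 43) and CDK4, the licensing gene CDT1 (21, 57, 64, 46 and 48) and POLE (21, 46, 72, 41 and 57). DNA damage and repair genes were named in 6 of 44, led by FANCA (26, 60, 94, 41 and 51), MDM2 (31, 136, 102, 33 and 27) and MSH6 (17, 63, 77, 38 and 26). RNA polymerase II, general factor and Mediator genes were named in 7 of 51, led by POLR2H, GTF2E2 and POLR2I, and translation factor and tRNA synthetase genes in 7 of 47, led by EIF3B, EIF5 and EEF1A1. Heat shock and unfolded protein response genes were named in 12 of 35 (BAG3, PDIA6 and DNAJB1 first). For nuclear pore and transport the count was 8 of 28 (KPNA2, NUP50 and RAN first) and for lysosome and autophagy 8 of 28 (CTSB, CTSD and TFEB first).

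**Figure D5:**
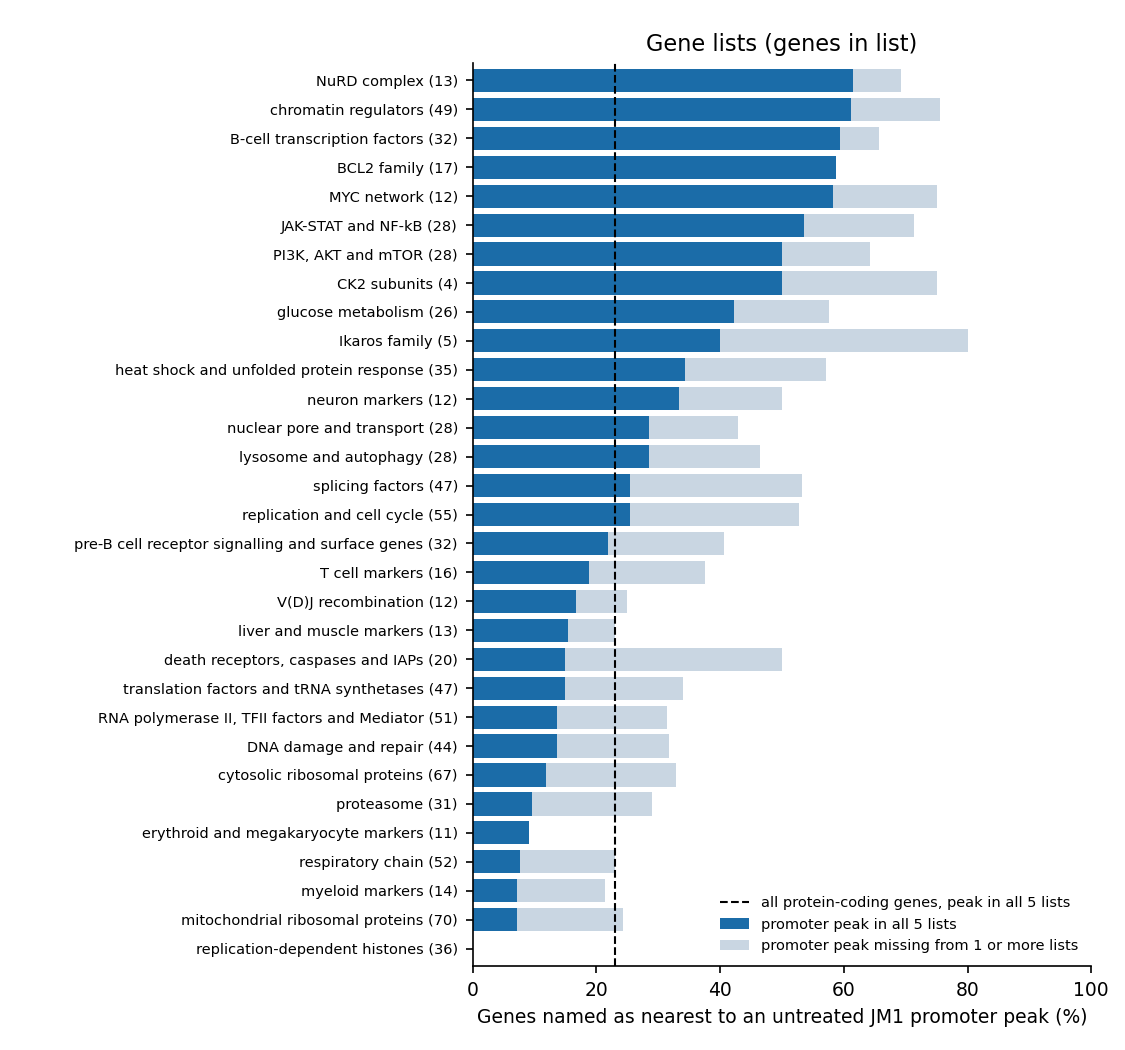
Share of the genes of 31 lists (rows, with the number of genes) named as nearest to an untreated JM1 promoter peak (horizontal axis, %), divided into peaks in all 5 lists and peaks missing from at least 1. The dashed line marks the 23.0% of all protein-coding genes named at a member, and the dark bars run from 0% for replication-dependent histones to 61.5% for the NuRD complex.

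Markers of cell types were also placed. With any TSS within 1000 bp counted, 3 of 15 markers of B-cell precursors had a member (EBF1, RAG1 and TCF3), against 28.4% of all protein-coding genes. A peak of any class stood near a TSS for 5 of the 15 in 697, 12 in Nalm6, 13 in REH and, for JM1, 14 with and 12 without the inhibitor, and DNTT had none in any list. The share of all protein-coding genes with such a peak was not computed. Counts of such peaks, here and for the other cell types below, therefore cannot be read as high or low. In REH such a peak stood near 8 of 8 neuron, 6 of 6 muscle, 9 of 12 myeloid and 7 of 12 T cell markers. There it also stood near 6 of 11 erythroid and megakaryocyte and 3 of 7 hepatocyte markers. In 697 the counts were 5, 4, 4, 6, 2 and 0 in the same order. Members stood near 1 of 12 T cell markers (ZAP70), 2 of 12 myeloid markers (ELANE and CEBPA), 1 of 11 erythroid and megakaryocyte markers (EPOR), 2 of 8 neuron markers (SNAP25 and MAP2), 0 of 7 hepatocyte markers and 2 of 6 muscle markers (CKM and DES). By the nearest-gene rule, members were named for 3 of 16 T cell genes (ZAP70, LAT and TCF7), 1 of 14 myeloid genes (ELANE), 1 of 11 erythroid and megakaryocyte genes (EPOR, with scores of 28, 32, 89, 41 and 44), 4 of 12 neuron genes and 2 of 13 liver and muscle genes (CKM and DES). The neuron genes were SLC17A7 (18, 39, 39, 80 and 42), GRIN1 (22, 38, 39, 22 and 39), SNAP25 (16, 18, 26, 17 and 47) and MAP2 (12, 50, 28, 24 and 76), with RBFOX3 and NEFL at other promoter peaks and SYT1, SYN1, GAD1, STMN2, CAMK2A and ELAVL4 at none. Among erythroid and megakaryocyte genes, GATA1, KLF1, HBA1, HBB, ALAS2, ITGA2B, GP9, PF4 and GP1BA were named at none. A peak marks a stretch of DNA in the immunoprecipitate and not the activity of the gene.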

How the data were processed

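Peak lists of 5 conditions were analysed. Paired-end reads had been trimmed with BBDuk according to the protocols in the labels. The submitters' processing notes name GRCh38 and the tools Bowtie2 2.3.4.3, MACS2 2.1.1 and HOMER 4.10. The settings of the peak calls, their controls and the meaning of the score were not given in the sources used. For each peak the authors deposited a position, a whole-number score of at least 10, an annotation class and a nearest gene, per the file headers. Numbering of the Nalm6 list has gaps, so it may be held only in part. Depth was not analysed, and longer lists meet the overlap rule more readily.

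Overlaps, percentiles, base composition and motif counts were computed with Python 3.11.15, pandas 2.3.3 and SciPy 1.17.1, with GRCh38 sequence, GENCODE release 44 and RefSeq promoters, after the code had been tested on simulated data. The highest-scored of several overlapping peaks stood for a member, and tied scores took the middle of their percentile range. Shares carry 95% exact Clopper-Pearson intervals, and with 1 list per condition no p-value was computed. Members, gene lists and naming rule were chosen with earlier results of these data known. Named by rule were the 15 members with the highest lowest percentile, the 3 highest scores of each list, the 5 widest percentile gaps, the 3 widest and narrowest peaks, those with most protein-coding TSSs, the edges of the overlap rule, BCL2L1, CK2 and Ikaros family genes, the highest 3 members of each gene list, and every gene of a list of 12 or fewer. Other names were added after their values were seen, and a few genes of the lists are counted but not reported by name here. For 172 members the annotated TSS was not located. Alternatives changed the overlap, score, list, promoter, window and gene rules.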

Additional observations from a re-analysis of the deposited data

How the results depend on the processing

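The number of members, 5654, or 57.5% of 9841, rested on the lists and rules used. It was 3478 (35.3%) when each other list had to cover 50% of the peak, 54.2% with at least 200 bp of overlap, 61.2% with a score of at least 15 in every list, 2083 (57.2%) with at least 20, 3177 (46.6%) with every list limited to its 19652 top-scored peaks, 55.2% with a peak centre within 1000 bp of any TSS, and 2921 (29.7%) with the promoter class required in every list. Without the 697 list it was 8569 (87.1%) and without Nalm6 58.9%. Started from another list, the share was 35.1% from treated JM1, 34.9% from REH, 76.3% from 697 and 39.7% from Nalm6. Median GC content was 68.7% over the whole peak, and the GC box share 75% in the TSS window. Percentiles among promoter-class peaks had medians of 60.2, 68.7, 68.4, 53.1 and 72.0 in untreated JM1, treated JM1, REH, 697 and Nalm6.

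At the members' GC content the difference from missing peaks, in percentage points, turned sign for the Ikaros core (0.63), ETS (-6.31), NRF1 (-1.27), YY1 (0.31), the TATA box (0.61), RFX (0.57) and the CGCG element (-0.023), and fell to 4.0 for the GC box. Without the GC bin of 15 missing peaks, an alternative chosen after seeing the data, the values were 0.29, -6.11, -1.32, 0.092, 0.67, -0.0095 and -0.044, so that RFX kept its sign, with 4.04 for the GC box, and the E-box (-0.41) and E2F (-0.22) turned too. In the TSS window ETS (-1.30) and the cAMP response element (0.017) turned. The difference for EBF fell from 9.90 to 2.57 and then to 0.68. With any TSS counted, the gene lists had 283 of 924 genes at a member in place of 233, and cytosolic ribosomal proteins 13, mitochondrial ribosomal proteins 11, proteasome 6, RNA polymerase II and Mediator 11, V(D)J recombination 4 and myeloid markers 2. No paired analysis was possible because each condition had 1 list. Depth behind the lists was not analysed, so absence from a list cannot be read as absence of binding.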

Other observations

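The nearest protein-coding genes of members had a median RefSeq length of 37.3 kb (quartiles 14.2 and 96.8 kb, 4556 genes), against 27.2 kb for the 2355 genes named only at promoter peaks missing from a list and 24.1 kb for all 20052. Another protein-coding gene started on the opposite strand within 500 bp upstream of 8.46% of member TSSs (7.68 to 9.30%), and of 9.35% (8.36 to 10.4%) of the others. Symbol families with at least 15 genes at untreated JM1 promoter peaks were looked at after the data had been seen. A family was set by all letters at the start of the symbol. Members took 18 of 19 SH genes, 14 of 15 B genes, 14 of 15 ARHGEF genes, 24 of 27 UBE genes and 15 of 18 ARHGAP genes. Of all named genes, 62.6% were at a member. ARHGEF and ARHGAP genes encode activators and inhibitors of small GTPases and UBE genes encode enzymes of ubiquitin transfer. Members took 52 of 134 LINC genes, 7 of 17 DDX genes and 10 of 27 RPL genes, the lowest share of these families.

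By chromosome, the share of promoter peaks in all 5 lists ran from 43.7% on X (36.2 to 51.4%, 174 peaks) to 71.6% on chromosome 8 (66.6 to 76.3%, 349 peaks) and 69.9% on chromosome 18 (61.7 to 77.3%, 143 peaks), around 57.5% for the genome. Median GC content of the promoter peaks was 67.3% on X, 68.7% on chromosome 8 and 70.3% on chromosome 18. It did not follow the share throughout. Chromosome 13 had 69.7% GC and a share of 56.9%, and chromosome 2 had 68.7% GC and a share of 59.3%. Chromosome 17, at 64.0% GC, had a share of 52.2%, above that of X. These values were not tested.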
